A study of Mus musculus with 14 samples.

Results

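Large tumors of the lung were set against normal lung, using 7 of the 14 arrays of the series. The tumor arrays were the 3 whose titles name a lung tumor of large size, and the other 4 were those titled as non-transgenic control lung. All probe sets other than the Affymetrix control probe sets were used, 12422 of 12488. The tumors grew in hemizygous SPC/myc mice of the CD2F1-(DBA/2xBalb/C) background aged 9 to 13 months. In these mice the promoter of human surfactant protein C drives c-Myc in the respiratory epithelium. Each large tumor measured 10 mm or more, was cut away from the surrounding lung and came from an animal of its own. The control lung was whole lung of non-transgenic mice of the same background and age, 1 animal per array. The comparison thus sets a dissected tumor against an organ of many cell types, and the sex of the animals was not given. Small tumors (3 pools of several tumors of 1 mm) and middle-sized tumors (4, of 4 to 5 mm) of SPC/myc mice served only to show where large tumors differed from other sizes.

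Myc is a transcription factor that binds DNA as a dimer with Max, with a preference for the palindromic E-box CACGTG. It is known for raising the production of ribosomes, the synthesis of nucleotides and proteins, the use of glucose and the entry into the cell cycle. The transgene acts in cells that make surfactant, the alveolar type II cells, which line the air sacs beside the flat alveolar type I cells that exchange gas with a dense capillary bed.

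The values are MAS 5.0 signals, which give each probe set an intensity on a linear scale. They had the same trimmed mean on every array except that of middle-sized tumor 3 (196, beside 250 in control lung 1). Each signal is thus relative to the other transcripts of its array. Signals under 70 were set to 70 before the log2 scale was taken, the level from which the methods took a gene as expressed, so that changes of genes near this limit are understated. Log2 fold changes and adjusted p-values (Benjamini-Hochberg over all probe sets tested) come from a limma model of all 4 groups, and adjusted p-values under 0.05 count as calls. Between 7031 and 7293 probe sets reached 70 on the large tumor arrays and between 7185 and 7575 on the control arrays. The small number of arrays limits the precision. On the array of middle-sized tumor 3, 25.2% of values were at or next to 0 and were treated as missing in the fit. Arrays followed their labels in Myc, and the lung markers Sftpc, the precursor of surfactant protein C, and Sftpb were present on all 7. Sftpc gave 9191, 12067, 6029 and 11936 in control lung and 9709, 9093 and 7768 in large tumors. Xist, which is transcribed from an inactive X chromosome, was above 70 in control lung 3 and large tumor 2 and below 70 on the other 5 arrays, and the Y-linked Eif2s3y was low on the same arrays. Both groups thus appeared to hold both sexes.

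Of 6914 probe sets tested, 1366 (19.8%) were higher and 1264 (18.3%) were lower in large tumors than in control lung. By at least 3-fold, 170 (2.46%) were higher and 375 (5.42%) were lower. All 3 large tumors lay above all 4 control lungs in 1673 probe sets (24.2%) and below them in 1480 (21.4%). The median log2 fold change over all probe sets tested was 0.07. Counts for gene groups are to be read against these shares. Without the 3 arrays with Xist above 70 (control lung 3, large tumor 2 and small tumor 1), 790 were higher, and with every array scaled to 1 median, 827 were lower. Without the limit of 70 set before the log2 scale, 275 were higher and 573 were lower by at least 3-fold.

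Myc, the gene of the transgene, rose strongly in every large tumor. Its signal was 35.6, 24.1, 26.3 and 32.9 in the 4 control lungs and 2165, 2008 and 1055 in the 3 large tumors. The groups were far apart, and large tumor 3 was the lowest tumor. With control lung below 70 throughout, Myc was at least 24.9-fold higher (adjusted p = 3.3e-07). The probe set cannot tell the transgene from the mouse gene. Of 11 genes of the Myc network tested, 3 rose (19.8% of all probe sets did) and none fell (18.3%), with a median log2 fold change of 0.19. Mxi1, which competes with Myc for Max, rose (log2 fold change 1.24, standard error 0.13, adjusted p = 9.3e-06), as did Ruvbl2, an ATPase of chromatin complexes (log2 fold change 0.63, adjusted p = 0.0114), although Ruvbl2 missed the threshold without large tumor 2 (adjusted p = 0.0669). Max itself missed the threshold (log2 fold change 0.39, adjusted p = 0.0617), although its signals of 576, 563 and 561 in large tumors all lay above 480.1, 404, 478 and 382 in control lung.

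**Figure D1:**
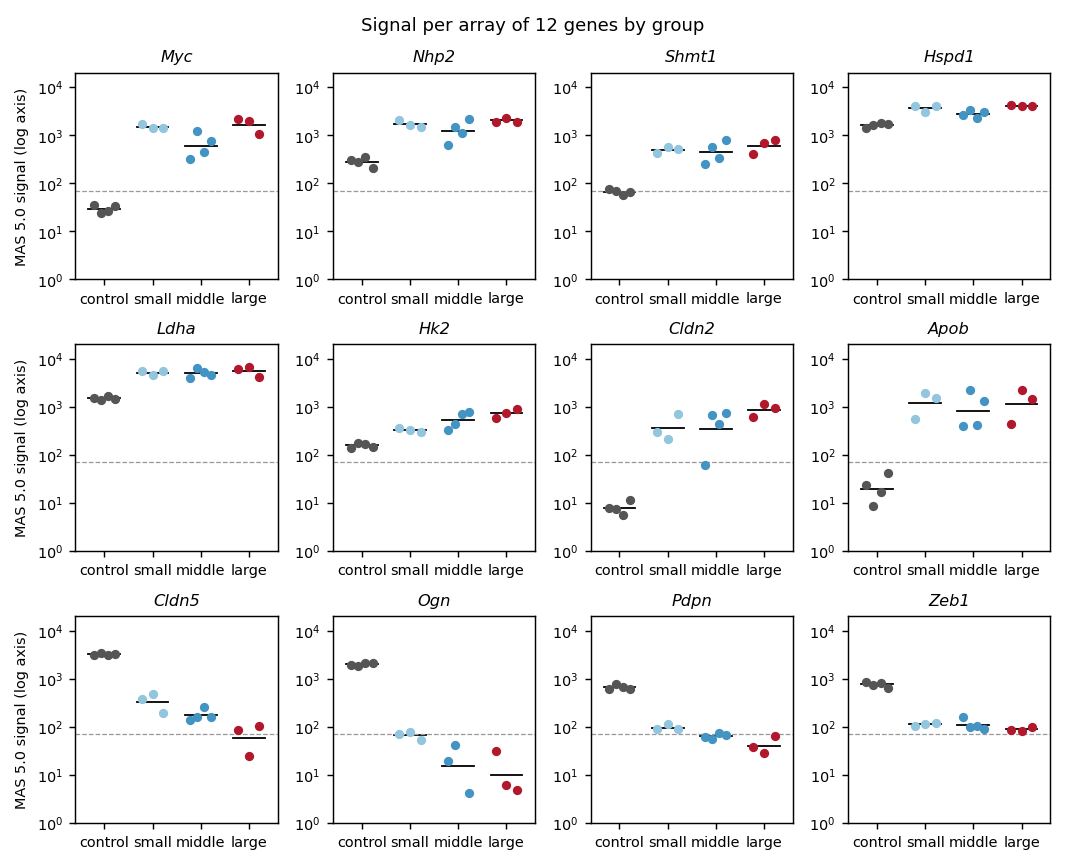
MAS 5.0 signal (log axis) of 12 genes on each array of control lung (n = 4), small (n = 3), middle-sized (n = 4) and large tumors (n = 3). Points are arrays, black lines geometric means and dashed lines the limit of 70, and missing values are left out. Myc, Cldn2 and Apob were below 70 in all control lungs and above it in all large tumors, whereas Ogn and Pdpn showed the opposite.

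Short stretches around the E-box CACGTG are shown for genes from the groups Myc is known for, beside those of endothelial genes. They come from the RefSeq promoter windows (GRCm38.p6) of 300 bases around annotated starts, and each stretch has 30 bases with the E-box in capitals, written 5′ to 3′ on the strand of the gene. The first 5 are ribosome biogenesis genes that rose, namely Nop2 (chr6:125131811-125131840), Pes1 (chr11:3963965-3963994), Utp4 (chr8:106893643-106893672), Tsr1 (chr11:74898092-74898121) and Wdr43 (chr17:71616220-71616249), all on the plus strand. Then come the mitochondrial chaperonin Hspd1 (chr1:55088306-55088335, minus strand) and lactate dehydrogenase A, Ldha (chr7:46845647-46845676, plus strand), which rose too. The last 2, on the plus strand, are endothelial genes, Bmp6 (chr13:38345577-38345606), which fell, and Ece1 (chr4:137913456-137913485), which was not called.
Nop2: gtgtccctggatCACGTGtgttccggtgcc
Pes1: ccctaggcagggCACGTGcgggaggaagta
Utp4: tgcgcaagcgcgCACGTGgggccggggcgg
Tsr1: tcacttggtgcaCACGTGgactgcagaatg
Wdr43: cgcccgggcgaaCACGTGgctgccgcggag
Hspd1: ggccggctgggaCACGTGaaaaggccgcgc
Ldha: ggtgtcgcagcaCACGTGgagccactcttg
Bmp6: ttcagggcagcgCACGTGtgcagactgcga
Ece1: gcctgggagaggCACGTGccccgccggcca
The motif reads the same on both strands. It stood in a window of 8.09% of all 27025 genes of the promoter table and of 12.3% of the 4944 tested genes that had a window, of 6128 tested genes with a symbol. The share was 13.9% among 983 genes called higher, 10.4% among 863 called lower and 12.4% among 3098 not called, and 13.4% and 8.66% among those changed by at least 3-fold upward (127) and downward (231). In ribosome biogenesis 8 of 41 genes with a window held it (19.5%), in glycolysis 4 of 23 (17.4%), in heat shock proteins and chaperonins 3 of 22 (13.6%), in G2/M and mitosis 3 of 37 (8.11%) and in nucleotide, one-carbon and polyamine enzymes 1 of 25 (4.00%). Among endothelial markers it was 2 of 19 (10.5%) and among fibroblast markers 2 of 26 (7.69%). Of the members called higher, 6 of 34 in ribosome biogenesis, 1 of 13 in glycolysis and 0 of 15 in G2/M held it. In heat shock proteins and chaperonins 1 of 9 called higher did, and in nucleotide, one-carbon and polyamine enzymes 1 of 16. The stretches shown were picked for holding the motif. Exosc5 and Imp4 of ribosome biogenesis, which were not called, held it too and are not printed. The windows of Nhp2, Nop56 and Ncl, which rose, and of Cldn5, which fell, did not hold these letters. A match describes letters in a window and not a bound site.

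Genes that build ribosomes rose almost as a group. Of 46 tested, 38 were higher (82.6%, beside 19.8% of all probe sets) and none was lower, with a median log2 fold change of 1.27. Nhp2, a core protein of the H/ACA small nucleolar ribonucleoproteins that guide pseudouridylation of ribosomal RNA, gave 301, 282, 347 and 203 in control lung and 1893, 2338 and 1929 in large tumors (log2 fold change 2.88, standard error 0.32, adjusted p = 8.6e-06). Gar1, another protein of these particles, went from 255, 262, 321 and 355 to 1414, 1765 and 1161 (log2 fold change 2.27, adjusted p = 1.5e-04). In both, the lowest tumor stood several-fold above the highest control lung. The C/D box proteins Nop56 (log2 fold change 2.38, adjusted p = 8.5e-04), Nop58, which was below 70 in every control lung and at least 4.60-fold higher, and the methyltransferase Fbl (log2 fold change 1.86, adjusted p = 3.9e-05) rose with them. Nop16, a nucleolar protein, had 273, 234, 349.5 and 214 in control lung and 1139, 1298 and 1224 in large tumors (log2 fold change 2.21, adjusted p = 2.4e-06). Tsr1, a factor of the small subunit, went from 225, 176, 275 and 229 to 1043, 1414 and 934 (log2 fold change 2.31, adjusted p = 1.4e-05). Subunits of RNA polymerase I also rose, with Polr1b at 1.27 (adjusted p = 3.3e-04) and the shared subunits Polr1c and Polr1d at 0.97 and 1.60 on the log2 scale. The abundant nucleolar proteins Npm1 and Ncl were both higher. The mean of Npm1 was 1190.4 ± 236 (SD, n = 4) in controls and 4786 ± 816 (SD, n = 3) in tumors, and that of Ncl 1207 ± 253 (SD, n = 4) and 4236 ± 886 (SD, n = 3). The 8 genes that did not pass the test were Ubtf, the architectural factor of ribosomal DNA (adjusted p = 0.990), Surf6, Bysl, Exosc5, Exosc8, Imp4, Nop10 and Bop1. Bop1 came closest (log2 fold change 0.77, adjusted p = 0.0517). No member was lower under any alternative, and between 27 and 41 were higher.

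The protein-making machinery followed in part. Cytosolic ribosomal proteins were higher in 17 of 21 tested and lower in none (median 1.03 on the log2 scale). Rpl13a, of the large subunit, had signals of 258, 222, 367 and 279.6 in control lung and 1735, 1568 and 939.8 in large tumors (log2 fold change 2.30, adjusted p = 3.7e-05), and Rpsa, of the small subunit, 1204, 1185, 989 and 1077 and 3430.2, 3938 and 3075 (log2 fold change 1.64, adjusted p = 6.5e-05). Most of these probe sets were bright, so that rises near 1 on the log2 scale, such as that of Rps3 (log2 fold change 1.08, standard error 0.21, adjusted p = 0.00129), still separated all tumors from all controls. Pseudogene copies of ribosomal protein genes could share these probes. Of 26 translation factors and tRNA synthetases, 14 rose and none fell. Eif3e, a subunit of the initiation factor eIF3, had the largest change (log2 fold change 2.14, adjusted p = 0.00174), followed by Eif2b1 (log2 fold change 1.74, adjusted p = 3.3e-04), which recharges eIF2, and Eif4b (log2 fold change 1.39, adjusted p = 2.3e-05). Both chains of the phenylalanyl-tRNA synthetase, Farsa (log2 fold change 1.26, adjusted p = 0.00125) and Farsb (log2 fold change 0.97, adjusted p = 0.00536), rose. The elongation factor Eef2 rose (log2 fold change 1.29, adjusted p = 1.8e-04), while Eef1a1 missed the threshold (log2 fold change 0.50, adjusted p = 0.102).

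Enzymes that supply nucleotides, one-carbon units and polyamines were higher in 17 of 28 genes tested and lower in none, with a median log2 fold change of 1.01. Shmt1, the cytosolic serine hydroxymethyltransferase, was near the limit in control lung (77.5, 68.2, 56.9 and 67.1) and well above it in large tumors (404, 705 and 783), 3.08 higher on the log2 scale (standard error 0.34, adjusted p = 7.6e-06). Slc19a1, which carries reduced folate into cells, was below 70 in control lung and at least 6.35-fold higher (adjusted p = 4.5e-05). Psat1, of serine synthesis, rose from 129, 161, 107 and 81.6 to 820.3, 499.9 and 651 (log2 fold change 2.47, adjusted p = 5.1e-05). The other enzymes of that pathway did not pass the test. Phgdh, which catalyses its first step, had a log2 fold change of -0.04 (adjusted p = 0.850) and Psph, which catalyses the last, 0.09 (adjusted p = 0.692). Phgdh was tested under 28 alternatives, beside at most 29 per gene, and may have been left out by a stricter filter on low signals. Changes near the limit of 70 are understated, so its value cannot show that Phgdh stayed the same. In pyrimidine synthesis Cad, which carries out the opening steps, Umps and the salvage kinase Uck2 all rose (2.14, 1.00 and 2.15 on the log2 scale, adjusted p = 5.9e-04, 0.00130 and 5.7e-05). In purine synthesis Gart (log2 fold change 1.72, adjusted p = 1.5e-04), Adsl (log2 fold change 1.15, adjusted p = 0.00423) and Prps1 rose, whereas Ppat, the committed step, missed the threshold (log2 fold change 0.28, adjusted p = 0.106). Ppat was also tested under 28 alternatives, so its change may be understated in the same way. For polyamines, spermidine synthase Srm went from 151, 144, 162 and 234 to 586, 1129 and 1032 (log2 fold change 2.38, adjusted p = 0.00161) and ornithine decarboxylase Odc1 also rose (log2 fold change 1.08, adjusted p = 1.9e-04). Arg2, the mitochondrial arginase that makes ornithine, was among the 10 largest rises of genes with means of at least 70 in both groups, with 83.4, 89.7, 86.6 and 72.7 in control lung and 413, 949 and 799 in large tumors (log2 fold change 3.04, standard error 0.45, adjusted p = 1.2e-04).

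Several chaperones of the cytosol and the mitochondrion rose. Of 28 heat shock proteins and chaperonins tested, 13 rose and 1 fell. The rises included 7 subunits of the cytosolic chaperonin, Tcp1, Cct3, Cct4, Cct5, Cct6a, Cct7 and Cct8, at log2 fold changes from 0.55 (Cct6a, adjusted p = 0.0404) to 1.48 (Cct3, adjusted p = 2.8e-04). Cct6a missed the threshold without any 1 of the large tumors or of control lungs 1 to 3 (adjusted p up to 0.108). The mitochondrial Hspa9, or mortalin, went from 483, 586, 617 and 518 to 1495, 2117 and 1860.1 (log2 fold change 1.72, standard error 0.24, adjusted p = 6.7e-05). Its partners of the mitochondrial matrix, Hspd1 (log2 fold change 1.34, adjusted p = 1.5e-05) and Hspe1 (log2 fold change 1.31, adjusted p = 0.00404), whose genes lie head to head, rose beside it. Cryab, the small heat shock protein of muscle and lens, was the member that fell, from 383, 345, 467 and 500.1 to 67.2, 125 and 74.7 (log2 fold change -2.27, adjusted p = 1.7e-05). The stress-induced Hspa1a was 297, 251, 235 and 6128 in control lung and 158, 183 and 185 in large tumors, so that control lung 4 stood far from the other controls, and it was not called (adjusted p = 0.159). Among splicing factors and hnRNP proteins 17 of 38 rose and none fell, led by the Sm protein Snrpg (log2 fold change 1.67, adjusted p = 5.9e-04) and by Hnrnpa1 (log2 fold change 1.61, adjusted p = 4.1e-04). Proteasome subunits stayed near the level of all genes: 3 of 29 rose, 1 fell and the median was 0.06. These counts were unstable, with 5 higher without middle-sized tumor 1, and 3 lower without control lung 4, 2 without large tumor 1 and 0 without any other control lung, any small tumor or large tumor 2 or 3. In the endoplasmic reticulum 5 of 23 rose (21.7%, near the 19.8% of all probe sets) and 2 fell (8.7%, beside 18.3%). Asns, asparagine synthetase, was among the rises (log2 fold change 0.84, adjusted p = 0.00241). Only 2 rose without control lung 1, control lung 2 or large tumor 3, and 8 without middle-sized tumor 4. Ddit3, the stress-induced factor also called CHOP, fell from 154, 174, 176 and 279.9 to values below 70 in all 3 large tumors, at least 2.80-fold (adjusted p = 3.0e-05).

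**Figure D2:**
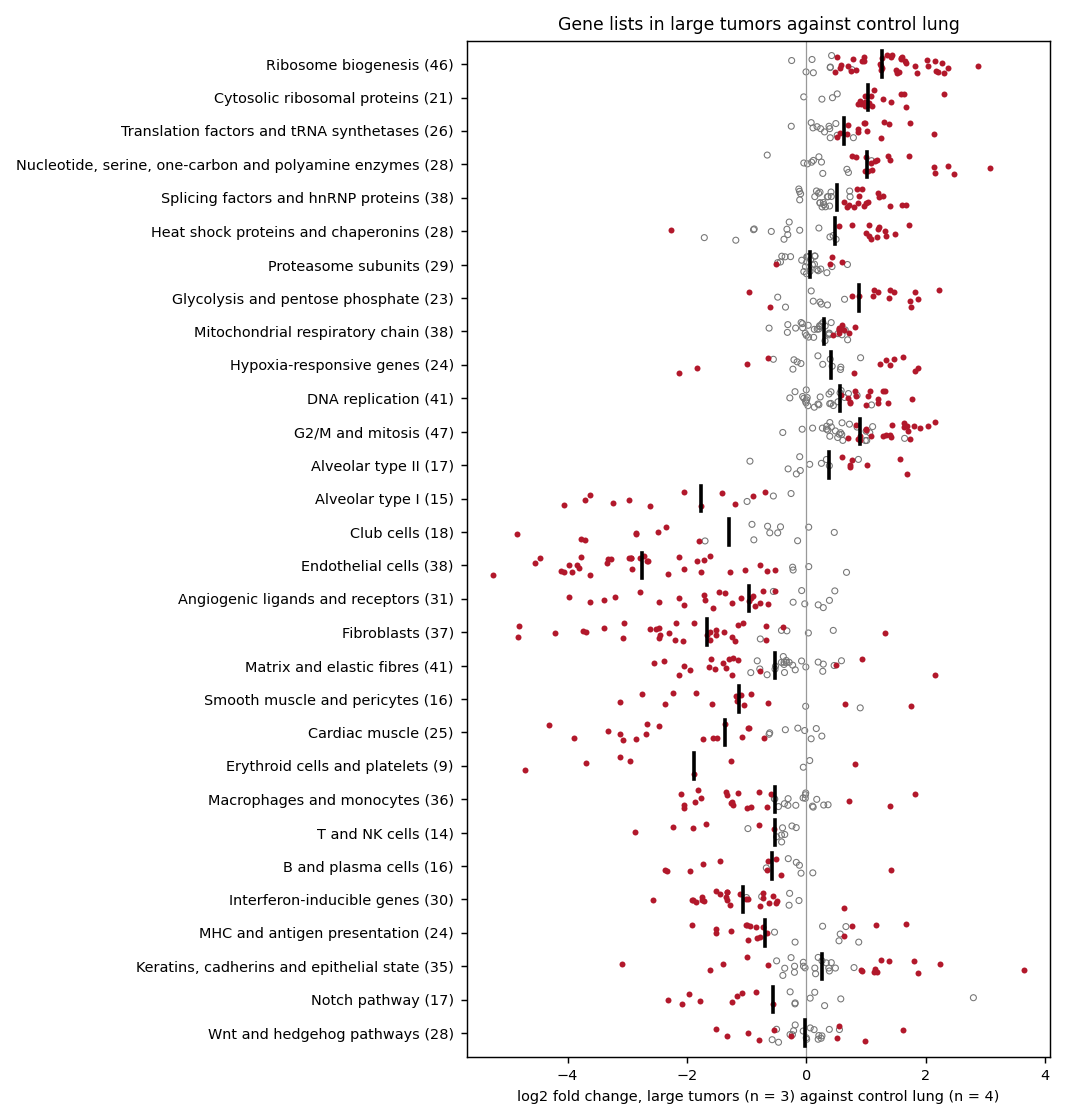
Log2 fold change of each tested gene of 30 lists between large tumors (n = 3) and control lung (n = 4), with the number of genes in brackets. Filled points passed the adjusted threshold of 0.05, open points did not, and bars are list medians. Ribosome biogenesis had the highest median among the lists drawn, 1.27, and endothelial cells the lowest, -2.75.

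Glucose-handling genes were higher in 13 of 23 tested, and 2 were lower. Both hexokinases on the list rose. Hk2 went from 143, 178, 172 and 144 to 589.9, 759 and 917 (log2 fold change 2.23, standard error 0.26, adjusted p = 1.5e-05) and Hk1 from 2068, 3093, 1479 and 1259.9 to 6272, 6878 and 5679.5 (log2 fold change 1.75, adjusted p = 0.00460). Of the later steps, Pfkl, Tpi1, Pgk1, Pgam1, Pkm and Ldha rose. Ldha, lactate dehydrogenase A, gave 1566, 1400.5, 1672 and 1494 in control lung and 6131, 6801 and 4277 in large tumors (log2 fold change 1.88, adjusted p = 2.8e-06). Pdk1, a kinase that holds pyruvate back from the mitochondrion, was 173, 198, 132 and 123 and 556, 1009 and 287, highest in large tumor 2 and lowest in large tumor 3 (log2 fold change 1.83, adjusted p = 0.00176). The members that fell were Eno3, the enolase of muscle (log2 fold change -0.96, adjusted p = 0.00583), and Taldo1 of the pentose phosphate path (log2 fold change -0.62, adjusted p = 0.00920). In the respiratory chain 9 of 38 genes rose and none fell, all by less than 1 on the log2 scale, the largest being Sdhd of complex II (log2 fold change 0.82, adjusted p = 0.00353). The share of 23.7% lay near that of all probe sets, and 15 rose without middle-sized tumor 1 in the fit.

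Hypoxia-responsive genes went both ways, with 8 higher and 4 lower of 24 tested. Besides the glycolytic enzymes named above, Car12, a carbonic anhydrase of the cell surface, was below 70 in control lung (41.3, 9.90, 27.9 and 32.7) and above it in large tumors (128, 296 and 259), at least 3.25-fold higher (adjusted p = 0.00112). Ddit4, an inhibitor of mTOR signaling, rose (log2 fold change 1.34, adjusted p = 3.9e-04). Epas1, which encodes HIF-2α and is abundant in lung endothelium, fell from 1482, 2172, 1426 and 1212 to 365, 553 and 398 (log2 fold change -1.83, adjusted p = 1.3e-04). Lox, which cross-links collagen, also fell (log2 fold change -2.14, adjusted p = 1.1e-04). Without large tumor 3, 2 members were lower. Vegfa, the main vessel growth factor, was 1056, 1069, 1255 and 1149.9 in control lung and 1291, 417 and 852 in large tumors and was not called (adjusted p = 0.224). Large tumor 2 was the lowest array of the 7 for Vegfa.

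Cell cycle genes rose on average but differed widely between the 3 tumors. For G2/M and mitosis 22 of 47 genes were higher and none was lower (median 0.90 on the log2 scale), and for DNA replication 15 of 41 were higher and none was lower (median 0.57). Cdc20, which switches on the anaphase-promoting complex, had 149.8, 157, 166 and 167 in control lung and 1240.3, 638 and 271 in large tumors (log2 fold change 1.90, standard error 0.55, adjusted p = 0.0141). The order, with large tumor 1 highest and large tumor 3 lowest, held also for Mki67, the proliferation marker (31.6, 33.8, 23.7 and 14.8 in control lung and 626, 241 and 33.7 in large tumors). Mki67 was not called (adjusted p = 0.0548), and its large tumor 3 lay within the range of control lung. Cdk1, the mitotic kinase, was below 70 in control lung and 547, 231 and 90.8 in large tumors (adjusted p = 0.0258), and the kinesin Kif22 went from 116, 118, 96.7 and 105 to 1009, 441 and 253 (log2 fold change 2.15, adjusted p = 0.00124). Taken as the median over the list of the log2 signal minus the control mean, G2/M genes stood at 1.79, 0.83 and 0.15 in large tumors 1, 2 and 3. DNA replication stood at 0.92, 0.43 and 0.10. Both lists had the same order over the 3 tumors, while ribosome biogenesis, at 1.10, 1.44 and 1.26, did not follow it. Without large tumor 1, 8 G2/M genes and 8 replication genes were higher, Cdc20 had an adjusted p of 0.0824 and Cdk1 of 0.147, and Cdk1 also missed the threshold without large tumor 2 or control lung 1 or 2. Without control lung 1, 2 or 3, 14, 12 and 12 G2/M genes were higher. Pold2, a subunit of DNA polymerase delta (log2 fold change 1.76, adjusted p = 1.5e-04), and the helicase subunit Mcm7 (log2 fold change 1.21, adjusted p = 0.00170) were among the replication genes that rose. Pcna missed the threshold (log2 fold change 0.45, adjusted p = 0.0655). In G1/S 7 genes rose and 7 fell of 23. Cks1b, a Cdk subunit needed to degrade p27, was among the 10 largest rises of genes with means of at least 70 in both groups (94.6, 118, 133 and 152 in control lung and 920.2, 1054 and 647 in large tumors, log2 fold change 2.80, adjusted p = 1.7e-05), and Tfdp1, the partner of E2F factors (log2 fold change 1.64, adjusted p = 2.8e-04), and Cdk4 (log2 fold change 1.09, adjusted p = 3.2e-04) rose less. Cdkn1c, which encodes the Cdk inhibitor p57, also rose (log2 fold change 1.38, adjusted p = 0.0110), as an inhibitor among the rising genes. Lats2 of the Hippo pathway (log2 fold change -2.61, adjusted p = 1.1e-05), Gas1 (log2 fold change -2.30, adjusted p = 2.8e-07) and Rb1 (log2 fold change -1.26, adjusted p = 1.5e-05) fell.

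Of the cell cycle and apoptosis genes that the study listed as up-regulated in tumors, 24 were tested and 19 were higher here. Of those listed as repressed, 21 were tested and 20 were lower, all but Bnip2, of which a second probe set was lower (adjusted p = 9.6e-06). Both lists were drawn up from these same arrays and give no independent evidence of direction. The 5 up-regulated genes that did not pass in large tumors were Mki67, Birc5, Aurka, Kif11 and Kif4, which mark dividing cells. Birc5, survivin, was 375, 105 and 21.4 in large tumors 1, 2 and 3 and below 70 in control lung (adjusted p = 0.135). Nek6, a mitotic kinase, behaved otherwise and was highest in large tumor 3, at 414, 452 and 559.7 beside 114, 122, 145 and 163 in control lung (log2 fold change 1.81, adjusted p = 2.4e-05).

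**Figure D3:**
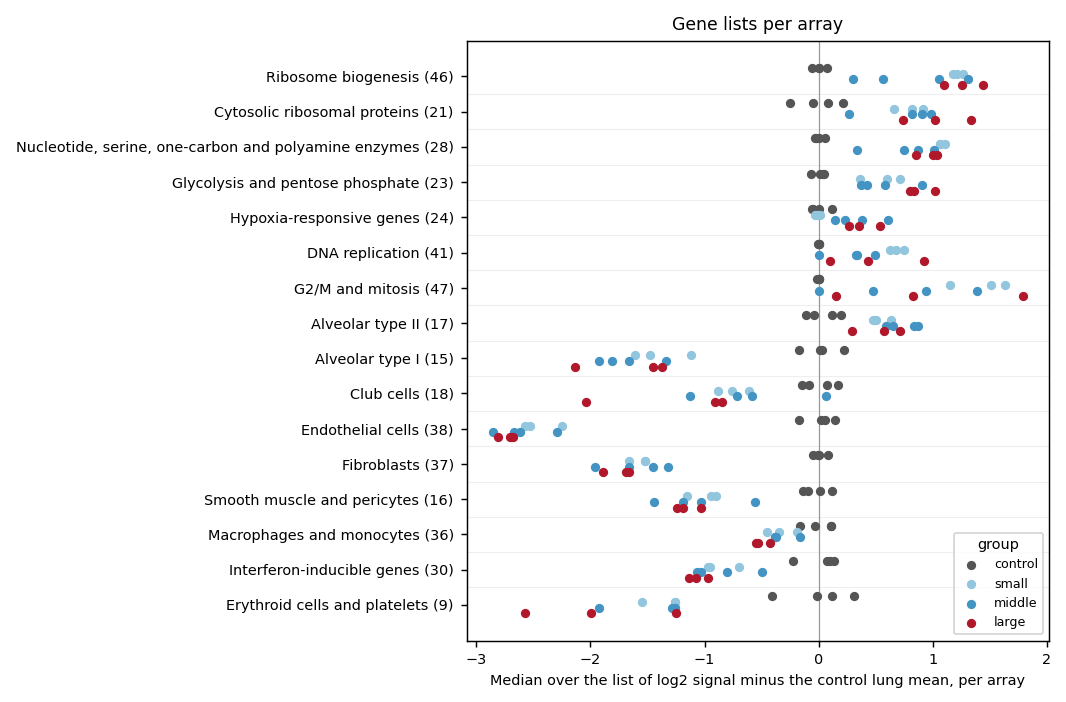
For each array, the median over the tested genes of a list (number in brackets) of the log2 signal minus the mean of the 4 control lungs, for control lung (n = 4), small (n = 3), middle-sized (n = 4) and large tumors (n = 3). Large tumors lay between 0.15 and 1.79 for G2/M and mitosis and between -2.81 and -2.68 for endothelial cells.

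Among genes with means of at least 70 in both groups, 9 of the 10 largest rises are described. Retsat, which saturates retinol, went from 114, 109, 133 and 96.5 in control lung to 552, 1794 and 1104 in large tumors (log2 fold change 3.20, standard error 0.45, adjusted p = 7.2e-05). All 3 tumors lay above all controls, and large tumor 2 was the highest. Fkbp11, a prolyl isomerase of the endoplasmic reticulum, was 72.8, 65.4, 88.7 and 91.0 and 423, 912 and 837 (log2 fold change 3.10, adjusted p = 2.1e-04). Mgst2, a membrane-bound glutathione S-transferase, was 78.1, 81.7, 81.0 and 70.1 and 748, 664 and 513 (log2 fold change 3.03, adjusted p = 6.8e-06). The metallothioneins Mt1 (log2 fold change 2.83, adjusted p = 2.2e-06) and Mt2 (log2 fold change 2.83, adjusted p = 1.1e-06), which bind zinc and copper, rose together. Mt2 gave 1330.1, 1121, 795 and 993 in control lung and 5991, 9708 and 7051 in large tumors. Arg2, Nhp2 and Cks1b, described above, and an unnamed probe set (log2 fold change 2.85, adjusted p = 1.3e-04) are the others.

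In 104 called probe sets every control lung was below 70, so only a lower limit of the fold can be given. The highest limits were those of Meg3, Myc, Apob and Cldn2. Apob, the protein of liver and gut lipoproteins, was 23.6, 8.48, 17.2 and 42.3 in control lung and 439.8, 2261 and 1490.2 in large tumors, at least 20.0-fold higher (adjusted p = 1.9e-04). Cldn2, a claudin that makes tight junctions leaky to cations, was 8.03, 7.48, 5.71 and 11.6 and 612, 1155 and 953, at least 13.0-fold higher (adjusted p = 4.9e-04). Both separated the groups completely. Kng1, kininogen of plasma (at least 7.88-fold, adjusted p = 4.9e-05), the receptor tyrosine kinase Ros1 (at least 6.24-fold, adjusted p = 0.0179), Slc19a1 and the liver arginase Arg1 (at least 5.54-fold, adjusted p = 0.0486) belong to the same set, as do 2 unnamed probe sets. Ros1 was 140.4, 304 and 866 in large tumors 1, 2 and 3, and missed the threshold without large tumor 3 (adjusted p = 0.101). Arg1 was 220.1, 864 and 79.4 and missed it without large tumor 2 (adjusted p = 0.282), and also without large tumor 1 or any single control lung. Meg3, an imprinted RNA that codes for no protein, was 15.9, 16.0, 16.5 and 32.7 in control lung and 90.5, 5097 and 2368 in large tumors. Its mean was at least 36.0-fold higher (adjusted p = 0.0323), but large tumor 1 was barely above the limit. Without large tumor 2 its adjusted p was 0.161, without large tumor 3 0.114, and between 0.0599 and 0.0618 without a control lung. Of 24 genes of gut and liver tested, 4 rose and 4 fell (16.7% each), near the shares of all probe sets (19.8% and 18.3%). Apoc1 (log2 fold change 2.65, adjusted p = 6.9e-05), Itih2 (log2 fold change 1.89, adjusted p = 9.4e-04) and Rbp4 (log2 fold change 1.31, adjusted p = 9.4e-04) rose with Apob. Albumin (Alb, log2 fold change 0.54, adjusted p = 0.174) and Afp (log2 fold change 0.47, adjusted p = 0.375) were not called, and Serpina3n fell (log2 fold change -2.14, adjusted p = 3.4e-04).

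Several keratin and junction genes rose, and factors that repress the epithelial state fell. Of 35 genes on this list 11 were higher and 5 lower. Krt18, a keratin of simple epithelia, went from 641, 812, 551 and 405 to 2083, 2014 and 2340.2 (log2 fold change 1.87, adjusted p = 2.7e-05), and its partner Krt8 rose as well (log2 fold change 0.92, adjusted p = 0.00187). Dsg2 of desmosomes (log2 fold change 1.81, adjusted p = 3.8e-05), Cldn3 (log2 fold change 1.18, adjusted p = 1.6e-06), Cldn7 (log2 fold change 0.93, adjusted p = 0.00364) and Epcam (log2 fold change 1.14, adjusted p = 5.7e-04) rose, whereas E-cadherin, Cdh1, missed the threshold (log2 fold change -0.02, adjusted p = 0.964). Zeb1, a repressor of E-cadherin that is also expressed in stroma, fell from 854, 735, 813 and 639.7 to 85.9, 82.6 and 99.3 (log2 fold change -3.09, standard error 0.21, adjusted p = 7.1e-08), and Snai1 (log2 fold change -1.62, adjusted p = 4.2e-05) and Snai2 (adjusted p = 0.00612) fell with it. Tjp1, a scaffold of tight junctions, fell (log2 fold change -1.40, adjusted p = 6.7e-06). Lcn2, a siderophore-binding protein of epithelium and neutrophils, rose from 757, 566, 482 and 258 to 2477, 3404 and 1375 (log2 fold change 2.24, adjusted p = 1.9e-04). The epithelial factor Elf5 was 258, 243, 231 and 176 in control lung and 1413, 1042 and 1702 in large tumors (log2 fold change 2.60, standard error 0.23, adjusted p = 1.1e-06). Cebpa (log2 fold change 1.69, adjusted p = 1.5e-06) and Elf3 (log2 fold change 1.06, adjusted p = 0.00999) rose too. Lung transcription factors as a list went both ways, 6 higher and 11 lower of 27. Tbx2 (log2 fold change -2.76, adjusted p = 1.1e-06), the type I cell factor Hopx (log2 fold change -2.63, adjusted p = 3.3e-05) and Tbx3 (log2 fold change -1.59, adjusted p = 2.2e-07) were lower, and Gata6 was not called (log2 fold change -0.03, adjusted p = 0.970).

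Markers of the epithelial cell types moved apart from each other. Type II markers were higher in 7 of 17 tested and lower in none (median 0.39 on the log2 scale). Sftpb rose (log2 fold change 0.74, adjusted p = 0.0143), as did the mucin Muc1 (log2 fold change 1.01, adjusted p = 0.00153) and the fatty acid synthase Fasn (log2 fold change 1.58, adjusted p = 0.00100), while Sftpc missed the threshold (log2 fold change -0.10, adjusted p = 0.760). Without large tumor 2, 4 type II markers were higher and Sftpb was not among the calls (adjusted p = 0.0671). Type I markers were lower in 12 of 15 and higher in none (median -1.76). Pdpn, podoplanin, went from 602, 758, 672 and 612 in control lung to 37.4, 28.1 and 63.3 in large tumors, at least 9.44-fold lower (adjusted p = 4.1e-09). Pmp22, a membrane protein of type I cells, was 2213, 2756, 2227 and 2320.0 and 194, 141 and 104 (log2 fold change -4.06, adjusted p = 9.3e-08). Ager, the receptor for glycation end products, fell by less (log2 fold change -1.19, adjusted p = 1.4e-04). Club cell markers fell in 8 of 18 and rose in none (median -1.30). The enzymes Fmo1 (3027, 3229, 2404 and 2391 in control lung, 108, 112 and 58.4 in large tumors, log2 fold change -4.85, adjusted p = 2.4e-06), Aldh1a1 (log2 fold change -3.78, adjusted p = 9.3e-06) and Cyp2b10 (log2 fold change -3.72, adjusted p = 4.1e-05) were among them. The main secretory protein Scgb1a1 (8532, 10599, 5859 and 10856 against 4726, 9957 and 2259, adjusted p = 0.0873) and Cyp2f2 (5057, 6108, 4119 and 6472 against 2870.5, 3925 and 401, adjusted p = 0.0693) were not called, although Cyp2f2 was lower in all 3 tumors. Of 7 markers of ciliated cells, 2 fell, 1 without any single control lung or small tumor or without large tumor 1 or 2, and 0 without large tumor 3.

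Endothelial genes had the lowest median of all lists. Of 38 endothelial markers tested, 34 were lower (beside 18.3% of all probe sets) and none was higher, 29 of them by at least 3-fold, with a median log2 fold change of -2.75. Whether large tumors held fewer endothelial cells or the same number with less of these RNAs cannot be told apart in bulk tissue, which holds for every cell type named here. Cldn5, the claudin of endothelial tight junctions, went from 3115, 3489, 3046 and 3192 to 84.3, 24.1 and 102 (log2 fold change -5.25, standard error 0.27, adjusted p = 7.9e-09). Ramp2, which helps form the adrenomedullin receptor, went from 4082, 5394, 3174 and 3517 to 175, 184 and 151 (log2 fold change -4.54, standard error 0.27, adjusted p = 2.5e-08), and Vwf, von Willebrand factor, from 2089, 2386, 2074 and 1484 to 112, 126 and 118 (log2 fold change -4.06, adjusted p = 3.8e-08). Every tumor lay more than 10-fold below every control lung in Cldn5 and Ramp2. Thbd (at least 22.4-fold lower, adjusted p = 1.5e-08), Icam2 (at least 17.3-fold, adjusted p = 4.5e-09), the angiopoietin receptor Tek (at least 15.8-fold, adjusted p = 6.8e-09) and Lyve1 of lymphatic vessels (at least 15.7-fold, adjusted p = 2.7e-06) were below 70 in all large tumors. Cavin2, a coat protein of caveolae, was 2210.1, 2074, 1951 and 1975 in control lung and 56.4, 46.0 and 128 in large tumors (log2 fold change -4.58, adjusted p = 2.8e-07), and Car4, a carbonic anhydrase of lung capillaries, fell as well (log2 fold change -3.27, adjusted p = 1.5e-06). The members that were not called were Pecam1 (log2 fold change 0.67, adjusted p = 0.0821), Ece1, Edn1 and Apln. A second probe set of Edn1, endothelin 1, was lower, from a mean of 316 to 63.4 (adjusted p = 2.5e-05).

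Receptors and ligands of vessel growth followed, with 23 of 31 lower and none higher. This list shares members with the endothelial markers, among them Tek, Kdr, Flt1 and Flt4, so the counts overlap. The VEGF receptors Flt1 (log2 fold change -2.78, adjusted p = 3.4e-05), Kdr (log2 fold change -2.12, adjusted p = 3.6e-06) and Flt4 (log2 fold change -1.71, adjusted p = 1.8e-06) all fell, and so did the ligands Vegfd (at least 5.61-fold, adjusted p = 4.7e-08) and Vegfc (log2 fold change -0.92, adjusted p = 1.3e-04). Vegfb missed the threshold (log2 fold change 0.28, adjusted p = 0.104). In the BMP and TGF-β family, the endothelial receptors Acvrl1 (log2 fold change -2.92, adjusted p = 1.8e-08) and Eng (log2 fold change -2.93, adjusted p = 2.7e-08), the ligand Bmp6, below 70 in all large tumors and at least 14.1-fold lower, and the inhibitor Smad6 (log2 fold change -2.75, adjusted p = 1.4e-06) fell. The signal transducers Smad1, Smad2, Smad4 and Smad5 were not called. Over that family 4 genes rose and 11 fell of 36, and Eng and Bmp6 are counted among the endothelial markers too. In the Notch pathway 9 of 17 fell and none rose. These were led by the target Hey1 (log2 fold change -2.32, adjusted p = 2.5e-05), the endothelial receptor Notch4 (at least 4.51-fold, adjusted p = 1.4e-05) and the ligand Dll1 (log2 fold change -1.96, adjusted p = 4.2e-06). Hey1 is counted among the endothelial markers too.

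Connective tissue markers fell too. Fibroblast markers were lower in 31 of 37 and higher in 1, with a median log2 fold change of -1.66. Inmt, a methyltransferase of amines, was 6198, 7271, 5165 and 7688 in control lung and 422, 239.9 and 119 in large tumors (log2 fold change -4.83, adjusted p = 2.4e-06). Ogn, a small proteoglycan, was 1894, 1821, 2101 and 2088 and 31.1, 6.07 and 4.76, at least 28.2-fold lower (adjusted p = 3.7e-10). Tcf21, a factor of lung mesenchyme, was below 70 in all large tumors and at least 13.7-fold lower (adjusted p = 1.3e-08). Limch1 (log2 fold change -4.21, adjusted p = 2.2e-06), which regulates non-muscle myosin, and the growth factor receptor Pdgfra (log2 fold change -3.39, adjusted p = 7.9e-07) fell with them. The retinol carrier Rbp4, also a liver gene, was the member that rose. Matrix genes fell less uniformly, 15 lower and 3 higher of 41. Postn, periostin (log2 fold change -2.55, adjusted p = 1.1e-04), and Col13a1 (at least 5.39-fold, adjusted p = 6.1e-07) fell. Of the fibrillar collagens, Col1a1 (log2 fold change -0.66, adjusted p = 0.267), Col1a2 (log2 fold change 0.59, adjusted p = 0.116) and Col3a1 (log2 fold change -0.78, adjusted p = 0.199) were not called, but a second probe set of Col1a2 was lower (log2 fold change -1.17, adjusted p = 0.00554). The rises were Col15a1 (72.6, 57.0, 124 and 113 in control lung, 502, 291 and 468 in large tumors, log2 fold change 2.16, adjusted p = 6.6e-04), Lama5 (log2 fold change 0.94, adjusted p = 0.00206) and Col18a1 (log2 fold change 0.50, adjusted p = 0.0496). Col18a1 missed the threshold without large tumor 2 (adjusted p = 0.209), without large tumor 3 or without control lung 1, 2 or 3, while 2 other probe sets of the gene were higher. The basement membrane genes Col4a2 (log2 fold change -0.78, adjusted p = 3.5e-04) and Lamb1 (log2 fold change -1.39, adjusted p = 7.7e-04) fell. Igfbp6 (log2 fold change -4.23, adjusted p = 2.0e-06), which binds insulin-like growth factor 2, the proteoglycan Spock2 (log2 fold change -4.44, adjusted p = 1.6e-07) and the lipid phosphatase Plpp1 (log2 fold change -4.06, adjusted p = 1.7e-07) were among the 10 largest falls of genes with means of at least 70 in both groups.

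Smooth muscle and pericyte genes were lower in 12 of 16 and higher in 2. Myh11, smooth muscle myosin, was 542, 767, 659.7 and 512 in control lung and 32.7, 7.10 and 6.17 in large tumors, at least 8.86-fold lower (adjusted p = 5.3e-09), and Acta2, smooth muscle actin, went from 1212, 1268, 1589 and 1040.0 to 321, 197 and 304 (log2 fold change -2.24, adjusted p = 6.1e-07). Rgs5, a regulator of G protein signaling known from pericytes, went the other way, from 66.1, 37.3, 42.8 and 88.0 to 223, 278 and 257 (log2 fold change 1.76, standard error 0.24, adjusted p = 5.8e-05). The other rise was that of Tpm1, a tropomyosin made in many cells (log2 fold change 0.64, adjusted p = 0.0214), which missed the threshold without large tumor 1 (adjusted p = 0.108), large tumor 3 or control lung 1. Cardiac muscle genes, which lung arrays can show through the muscle of the pulmonary veins, fell in 17 of 25. The atrial light chains Myl7 (at least 20.6-fold) and Myl4 (at least 16.3-fold) were below 70 in all large tumors (adjusted p = 5.1e-09 and 4.2e-07). A second probe set of Myl4 fell less, from a mean of 295 to 117 (log2 fold change -1.28, adjusted p = 9.6e-04). Of 6 mesothelial markers 4 fell, among them Msln, mesothelin (at least 2.79-fold, adjusted p = 5.1e-06), and Upk3b (log2 fold change -2.34, adjusted p = 5.6e-05). Red cell and platelet genes fell in 6 of 9. Alas2, of heme synthesis in red cells, went from 2453, 2817, 1205 and 1358 to 57.5, 35.9 and 55.0 (adjusted p = 8.2e-08), and globin Hba-a1 went from 9317, 12289, 6283 and 12139 to 1094, 1628 and 1088 (log2 fold change -2.96, adjusted p = 6.1e-06). Hbb-bh1, an embryonic globin, was the member that rose, from below 70 to 122, 191 and 82.0 (adjusted p = 0.00568).

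Immune cell markers were mostly lower. Macrophage and monocyte genes fell in 17 of 36 and rose in 3 (in 1 without control lung 1, 2 or 4 and in 0 without large tumor 1). Ccr2, the receptor of inflammatory monocytes, went from 629, 584, 284 and 167 to 65.7, 97.2 and 88.5 (log2 fold change -2.11, adjusted p = 3.3e-04), and Csf1r, the receptor for macrophage growth factor, fell as well (log2 fold change -1.23, adjusted p = 2.7e-04). Cd68 (log2 fold change -0.01, adjusted p = 0.977), Lyz2 (log2 fold change -0.30, adjusted p = 0.487) and the complement genes C1qa, C1qb and C1qc did not pass the test. The rises were Arg1, the elastase Mmp12 (200.1, 118, 390.1 and 152 against 777, 225 and 764, adjusted p = 0.0292) and Cd14 (log2 fold change 0.72, adjusted p = 0.0134), and none of these was called in every leave-one-out fit. Mmp12 had adjusted p-values up to 0.125 (without large tumor 1) and Cd14 of 0.0694 without the same tumor. Of neutrophil, mast cell and basophil genes 7 of 16 fell and 1 rose, Lcn2, which epithelium also makes. S100a8, a subunit of calprotectin, was 2061, 2271, 310.0 and 234 in control lung and 41.8, 47.2 and 58.2 in large tumors, at least 17.4-fold lower in the mean (adjusted p = 0.0181), and control lungs 1 and 2 stood far above 3 and 4. Without control lung 1 or 2 its adjusted p was 0.0559 or 0.0567, and 4 genes of the list were lower without either of these or without large tumor 1 or 2. Kit, listed here as a mast cell gene, was at least 10.6-fold lower (adjusted p = 1.2e-08). T and NK cell genes fell in 6 of 14, with Gimap4 (log2 fold change -2.87, adjusted p = 1.5e-06) and Ccl5 (at least 3.91-fold, adjusted p = 1.3e-05) among them, and in 10 without control lung 4. B and plasma cell genes fell in 9 of 16. They included the heavy chain gene Ighm (1764, 1917, 1558 and 1663 against 301, 241 and 543, log2 fold change -2.34, adjusted p = 0.0102). The proteoglycan syndecan-1, Sdc1, which epithelium also makes, was the exception and rose (log2 fold change 1.42, adjusted p = 3.1e-04).

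Interferon-inducible genes and class I antigen presentation were lower, while genes of classical class II molecules were not. Of 30 interferon-inducible genes 24 fell and 1 rose (median -1.06 on the log2 scale). The guanylate-binding protein Gbp2 went from 420.3, 426, 612 and 410.2 to 63.1, 46.7 and 94.3 (log2 fold change -2.57, standard error 0.20, adjusted p = 2.9e-07) and Isg15 was at least 3.38-fold lower (adjusted p = 0.00182). For class I, B2m, the invariant light chain, went from 4739, 4903, 3805 and 4178 to 2306, 1240.4 and 2117 (log2 fold change -1.27, adjusted p = 2.3e-04). H2-K1 (log2 fold change -0.94, adjusted p = 2.9e-04) and H2-D1 (log2 fold change -0.83, adjusted p = 7.8e-04), the peptide transporter gene Tap2 (log2 fold change -1.52, adjusted p = 4.8e-04) and the immunoproteasome subunits Psmb8 (log2 fold change -1.01, adjusted p = 9.0e-04) and Psmb9 (log2 fold change -1.92, adjusted p = 4.9e-04) fell with it. Class I genes are near-identical in sequence, so these probe sets can share transcripts. Psmb8 and Psmb9 are counted among the interferon-inducible genes too. In contrast H2-Ea of class II rose from 1256, 874, 1749.6 and 1749 to 5563, 5910.4 and 2457 (log2 fold change 1.68, adjusted p = 0.00156), as did the invariant chain Cd74 (log2 fold change 0.77, adjusted p = 0.0154) and the peptide loaders H2-DMa (log2 fold change 0.64, adjusted p = 0.0274) and H2-DMb1 (log2 fold change 1.17, adjusted p = 0.0419). Of these 4, H2-Ea alone was called without large tumor 1 or without large tumor 2, where the adjusted p of Cd74 was 0.0725 and 0.0707. H2-DMb1 also missed the threshold without any single control lung or small tumor or without middle-sized tumor 3, and H2-DMa without control lung 1, 2 or 3. H2-Ob, a chain of the class II modulator H2-O, fell (log2 fold change -0.85, adjusted p = 7.1e-04). H2-Aa (log2 fold change 0.66, adjusted p = 0.158) and H2-Ab1 (log2 fold change 0.88, adjusted p = 0.0947) were not called. Of 32 chemokine and interleukin genes 18 fell, and 10 did so where a signal of 70 was required on 7 or more arrays. Csf3 (log2 fold change 1.19, adjusted p = 9.6e-04) and Cxcl1 (log2 fold change 0.77, adjusted p = 0.0325), which act on neutrophils, were the members that rose, although Cxcl1 missed the threshold without control lung 1 or 2 or any single large tumor (adjusted p up to 0.0960).

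In growth factor signaling, 8 genes of the ERBB, MET and insulin-like growth factor list rose and 5 fell of 26. Met was below 70 in all control lungs and 246, 161 and 202 in large tumors (at least 2.90-fold, adjusted p = 0.0113), and Hgfac, the protease that activates its ligand, went from 16.9, 45.9, 17.4 and 119 to 403, 359 and 532 (log2 fold change 2.41, adjusted p = 2.2e-05). Erbb3 (log2 fold change 1.12, adjusted p = 3.2e-04) and the adaptor Grb7 (log2 fold change 1.11, adjusted p = 2.9e-05) rose, while Egfr (log2 fold change -0.16, adjusted p = 0.614) and Igf1r (log2 fold change -0.19, adjusted p = 0.691) were not called. Without large tumor 2, 5 genes of this list were higher. In the Wnt and hedgehog list, 4 rose (14.3%) and 6 fell (21.4%) of 28, near the shares of all probe sets (19.8% and 18.3%). Shh, the hedgehog ligand of lung epithelium, went from 222, 161, 199.5 and 264 to 437, 779 and 777 (log2 fold change 1.62, standard error 0.26, adjusted p = 2.4e-04). Without large tumor 1, 2 and 3 genes of this list were higher and lower, and 2 were higher without large tumor 3, control lung 1 or control lung 2. Immediate early genes were lower in 9 of 28. Klf4, a factor of quiescent cells, went from 1029, 946, 967 and 1652 to 58.5, 58.4 and 144 (log2 fold change -3.65, standard error 0.31, adjusted p = 7.5e-07), and Jun (log2 fold change -2.14, adjusted p = 3.5e-04) and Fos (log2 fold change -1.87, adjusted p = 9.3e-04) fell too. Besides Myc, Junb rose (log2 fold change 0.74, adjusted p = 0.0132). Genes of the p53 response (1 higher and 4 lower of 17) and of apoptosis (6 and 5 of 35) showed no common direction. The shares were 5.88% and 23.5% in the p53 response and 17.1% and 14.3% in apoptosis, beside 19.8% and 18.3% of all probe sets. In the p53 response 3 were higher without middle-sized tumor 1 and 2 without control lung 4 or middle-sized tumor 3. In apoptosis 3 were lower without large tumor 2. Cdkn1a, the p53 target p21, was not called (log2 fold change 0.25, adjusted p = 0.539), while Zmat3 rose (log2 fold change 1.44, adjusted p = 0.00138) and the death receptor Fas fell (at least 2.06-fold, adjusted p = 0.00443).

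Lipid and antioxidant genes also went both ways. For lipids 6 rose (20.0%) and 5 fell (16.7%) of 30, near the shares of all probe sets (19.8% and 18.3%). Among the members named here, the synthesis genes Fasn and Me1 (log2 fold change 1.25, adjusted p = 1.8e-04) rose, and those of transfer and uptake fell. Pltp, phospholipid transfer protein, went from 2634, 3447, 2399 and 2992 to 269, 173 and 181 (log2 fold change -3.80, standard error 0.45, adjusted p = 1.6e-05), lipoprotein lipase Lpl from 1053, 1051, 635 and 473 to 136, 185 and 161 (log2 fold change -2.25, adjusted p = 8.4e-05), and the fatty acid carrier Cd36 fell as well (log2 fold change -1.81, adjusted p = 7.0e-04). Without large tumor 2, 3 lipid genes were higher. Cdo1, cysteine dioxygenase, went from 1629.9, 1840.4, 1265 and 984 to 38.3, 46.6 and 68.9, at least 20.4-fold lower (adjusted p = 6.1e-07). Of glutathione and antioxidant genes 9 rose and 8 fell of 32. The secreted enzymes Sod3 (log2 fold change -2.62, adjusted p = 5.5e-05) and Gpx3 (log2 fold change -2.07, adjusted p = 2.9e-04) fell, and the peroxiredoxins Prdx4 (log2 fold change 0.86, adjusted p = 0.00336) and Prdx2 (log2 fold change 0.76, adjusted p = 0.00142) rose. Without large tumor 1, 5 of this list were higher.

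Against the mean of small and middle-sized tumors, no probe set passed the limma test in large tumors (0 of 6914, 0.0%), and 317 (4.58%) were higher and 341 (4.93%) lower at an unadjusted p under 0.05. The methods' unpaired test called 1 after adjustment, and 313 and 302 without it. Against small tumors alone 2 were lower (0.0289%), Cldn5 and an unnamed probe set, both at an adjusted p of 0.0489, and against middle-sized tumors none was called (0.0%). Cldn5 fell by 1.97 on the log2 scale, from 383, 480.3 and 197 in small to 84.3, 24.1 and 102 in large tumors. Large, small and middle-sized tumors were set against the same 4 control lungs, so their values are given side by side only. Examples chosen after their values were seen, none of which passed the test between sizes, are Hk2, Retsat and Inmt. Hk2 had means of 331 in small, 565 in middle-sized and 755 in large tumors (large against the other sizes, log2 difference 0.83, unadjusted p = 0.00369). Retsat had 287, 417 and 1149.8 (log2 difference 1.72, unadjusted p = 8.2e-04). Inmt had 1157, 1049 and 260.4 (log2 difference -2.14, unadjusted p = 1.6e-04).

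The 3 large tumors also differed among themselves. The range over the 3 was at least 2 on the log2 scale in 123 probe sets, and over the 4 control lungs in 33. The median SD over all 6914 probe sets was much alike, 0.231 in large tumors and 0.229 in control lung. The genes of the widest range are given as a description, with no test, since they were chosen for it. Meg3 and its imprinted neighbor Dlk1, a Notch-like ligand, had the widest ranges of all probe sets tested. Dlk1 was 164, 118, 123 and 201 in control lung and 163, 3629 and 1854 in large tumors, so that large tumors 2 and 3 were high in both genes and large tumor 1 was at the level of control lung in Dlk1. Irx3, a homeobox factor, ran the other way, at 1734, 518 and 92.9 in large tumors 1, 2 and 3 and 694, 743, 828 and 679 in control lung. Aqp4, a water channel, was 639, 952 and 35.1, and low only in large tumor 3. Cyp2f2, Cdc20, Mki67 and Cdk1 were also lowest in large tumor 3. Arg1 was highest in large tumor 2, at 220.1, 864 and 79.4. Among the lists drawn by array, club cell markers stood at -0.90, -0.85 and -2.04 in the 3 tumors, while endothelial markers stood at -2.81, -2.70 and -2.68, a narrow range beside the distance from control lung.

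**Figure D4:**
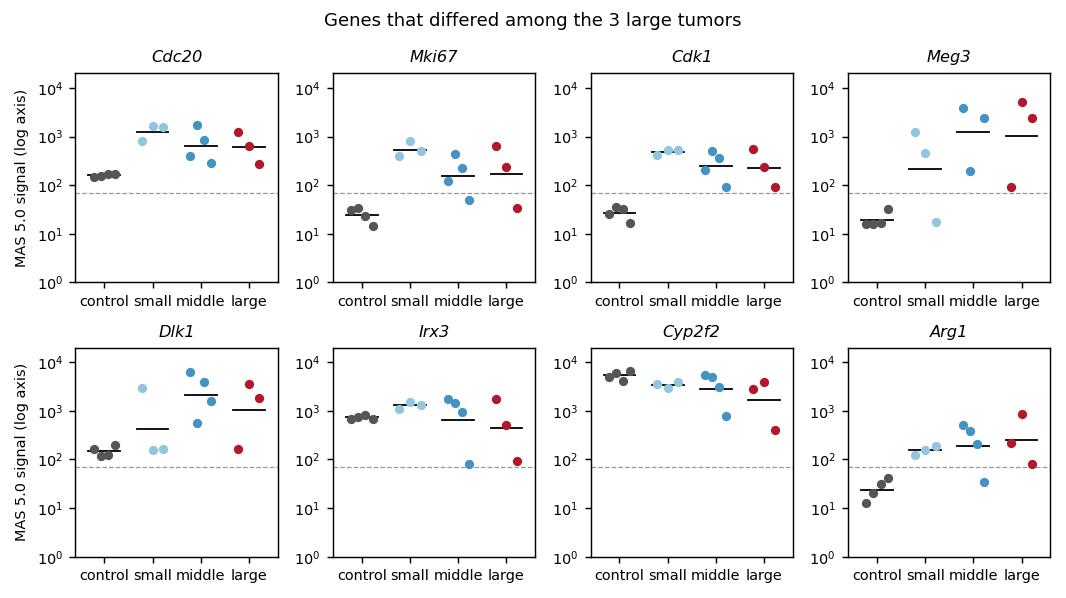
MAS 5.0 signal (log axis) on each array of 8 genes that differed among the 3 large tumors, chosen after their values were seen, by group. Points are arrays in replicate order, black lines geometric means and dashed lines the limit of 70. Large tumor 1 was the highest of the 3 in Cdc20, Mki67, Cdk1 and Irx3 and the lowest in Meg3 and Dlk1.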

How the data were processed

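RNA of 14 samples, 1 array each, was hybridized to Affymetrix U74Av2 arrays. The deposited intensity values are MAS 5.0 signals on a linear scale, which the authors scaled to 1 target signal per array. Of 12422 probe sets that are no Affymetrix controls, 10833 had 1 gene symbol in the platform annotation, 396 several and 1193 none. Signals at or next to 0 on 1 middle-sized tumor array were treated as missing. Signals under 70 were set to 70 and log2 was taken. Only probe sets that reached 70 on 3 or more arrays were tested, with 1 probe set per symbol (the one with the highest mean signal), 6914 in all. Groups came from the sample titles. A limma (version 3.58.1, R 4.3.3) model of 4 groups with a trend in the spread gave moderated tests with Benjamini-Hochberg adjustment, called under 0.05. It was tested on simulated data. Where every array of 1 group was below 70, the fold is a lower bound against 70. P-values measure the spread between animals.

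Named genes are the 10 largest rises and falls with no overlap and means of at least 70 in both groups, the 10 largest bounds each way, and 2 to 6 members per list with a large change, an opposite call or a defining role. The first in rank of the 10 rises is not reported here. Genes singled out otherwise are said to be. The members and gene lists were chosen with earlier results of these data known. Alternatives were other floors, scalings, filters and fits, the methods' unpaired test, a replicate block and each array left out. Promoter windows and their sequences are from RefSeq (GRCm38.p6), matched by symbol.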

Additional observations from a re-analysis of the deposited data

Results flagged for a closer look

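In 19 of 275 genes checked, 1 of the 4 control lungs lay far from the other 3, with a gap to the nearest control that took most of the whole range of the group. Chance alone gives such a gap in about 1 in 20 groups. The gap as a share of the range, on the linear signal, was 0.990 in Hspa1a, where control lung 4 was high. It was 0.968 in Eno3, 0.966 in Tbx2, 0.923 in Gbp2, 0.917 in Bnip2, 0.912 in Lox, 0.906 in Tap2, 0.901 in Cd14 and Umps, and 0.882 in Klf4. It was 0.874 in Col1a2, 0.864 in Erbb3, 0.862 in Pkm, 0.857 in Cct8, 0.854 in Pecam1, 0.840 in Snai1 and 0.834 in Vegfd. In Xist it was 0.907, with control lung 3 high. In Meg3 it was 0.965, but all 4 control signals were below 70 there. Groups of 3 tumors were not checked in this way.

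In 2 probe sets large tumors differed from small tumors by the test of that difference itself. Cldn5 was lower by a log2 difference of -1.974 and an unnamed probe set by -1.259.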

How the results depend on the processing

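Of 219 named genes called between large tumors and control lung, 180 were called under every alternative in which they were tested. Some of these, such as Bmp6 and Myl7, were tested under 28 alternatives and not 29. No named gene turned its direction, and 39 missed the threshold under at least 1. Without the 3 arrays with Xist above 70, an alternative chosen after seeing the data, 19 of them missed it, and with values of 0 kept as deposited 22. The count of probe sets called higher was 790 without the 3 arrays with Xist above 70, and the count called lower was 827 with each array scaled to 1 median. With no floor, 275 were at least 3-fold higher and 573 at least 3-fold lower. Leaving out 1 array at a time gave between 1085 and 1497 higher, 1035 and 1353 lower, 158 and 201 at least 3-fold higher and 364 and 400 at least 3-fold lower. The replicate numbers did not pair the samples, since large tumors and control lungs of the same number deviated together with correlations of -0.0181, -0.111 and -0.0018. With the replicate block 1253 were higher and 1225 lower, 184 and 400 by at least 3-fold, and 0 and 0 between large and smaller tumors. The methods' unpaired test gave 1600 higher and 1371 lower at an unadjusted p under 0.05, and 1133 and 1019 after adjustment.

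Between large and smaller tumors, where limma called none, the methods' unpaired test had 313 higher and 302 lower at an unadjusted p under 0.05. It had 1 higher after adjustment, and 1 was higher with all probe sets, with only the groups compared or with array weights, and 2 with no filter on low signals. For lower genes the count was 1 with no floor, a floor of 35, scaling to 1 median (which put the median of all probe sets at -0.14), all probe sets or a robust spread. It was 2 with no filter and 3 with array weights or with at least 70 on at least 7 arrays. Leaving out 1 array gave 0 to 6 higher and 0 to 13 lower.

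Calls in G2/M and mitosis ranged from 6 higher without the 3 arrays with Xist above 70 to 32, with 11 under 1-median scaling and under the block. Scaling to 1 median left 1 respiratory chain gene higher. Requiring 70 on 7 or more arrays, which drops genes seen in control lung alone, left fewer genes lower in several lists. These were 5 cardiac, 3 neutrophil, mast cell and basophil, 10 chemokine and interleukin and 15 angiogenic genes. It left 14 of the study's repressed genes, 28 endothelial and 26 fibroblast markers lower. Leaving out the 3 arrays with Xist above 70 gave 27 ribosome biogenesis genes higher and 31, 28 and 10 endothelial, fibroblast and type I markers lower. It gave 11 ribosomal protein, 8 replication, 9 translation, 4 respiratory chain and 4 type II genes higher. List medians changed sign under at least 1 alternative only where genes went both ways, in proteasome, lipid, antioxidant, G1/S, p53, apoptosis, lung transcription factor, gut and liver, and Wnt and hedgehog genes. Where the report gives none of a list as called in 1 direction, leaving out 1 array gave 1 call at most in nucleotide enzyme, DNA replication and respiratory chain genes (lower) and in endothelial, angiogenic and Notch genes (higher). In heat shock proteins 2 were lower without middle-sized tumor 3, and 2 fibroblast markers were higher without large tumor 3. Second probe sets were on the other side of the threshold for Aqp4, Bnip2, Car4, Col18a1, Col1a2, Csf1r, Cxcl1, Edn1, Exosc5, Flt4, H2-DMa, H2-K1, Hspd1, Ighm, Junb, Lcn2, Mmp12, Notch4, Pdgfra, Polr1c, Rb1, Ros1, Slc19a1, Spock2 and Tfdp1, most of them dim. The cause of these differences was not tested. Changes below a signal of 70 could not be measured, and 3 tumors against 4 lungs bound what could be called.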
